A study of Mus musculus with 29 samples.

Results

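The genes described here make cholesterol from acetyl-CoA or control that synthesis. They were taken from a list of 27 gene symbols, of which 26 are in the deposited count table of 22327 genes, and all 26 passed the low-count filter that left 16074 genes. The listed gene Mvd was not analysed here. In pathway order, 19 members are enzymes, from Acat2 to Dhcr7. A further 6 are the sterol control genes Srebf2, Scap, Insig1, Insig2, Mbtps1 and Mbtps2, and Stard4 carries sterol between membranes.

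The study sequenced polyA RNA held on tagged ribosomes from the cortex of 29 mice (translating ribosome affinity purification, TRAP), 1 library per mouse, in 7 groups, with the integrated stress response of microglia as its subject. All mice were 6 months old, carried 1 copy of Cx3cr1-CreERT2, and had received 100 mg/kg tamoxifen, which turns on the eGFP-L10a ribosomal tag in cells that express Cx3cr1. These are microglia and also border macrophages, so the tag is not limited to 1 cell type. The 5xFAD TRAP group (n = 4) carried the 5xFAD transgenes, which give amyloid plaques, and received VEGF (1 µg/kg) and ASV (5 mg/kg) for 4 weeks, whereas TRAP mice (n = 5) had the tag alone and neither agent. The 5xFAD Eif2A (n = 3) and Eif2A (n = 4) mice were homozygous for the A allele of Eif2s1, which makes eIF2α that kinases cannot phosphorylate, with a floxed Eif2s1 transgene, and received no VEGF or ASV. The 5xFAD iPKR (n = 4), iPKR ASV (n = 5) and iPKR vehicle (n = 4) mice carried a construct that joins the tag to an inducible eIF2α kinase and the NS3 protease. The first 2 of these groups received VEGF and ASV, and iPKR vehicle received VEGF with the drug's solvent. The 5xFAD effect is therefore mixed with VEGF and ASV in the first comparison below and not in the other 2, and the 3 comparisons share no control libraries. Since all 29 libraries were fitted in 1 model, they do share an estimate of spread.

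The median library held 6.05 M counts, the smallest 1.66 M and the largest 32.0 M. Each library has a labelled batch, and all Eif2A and 5xFAD Eif2A libraries were in batch 1, while TRAP had 4 libraries in batch 1 and 1 in batch 2. Reads from Y-linked genes went against the labelled sex in 8 libraries, namely Eif2A replicates 3 and 4, iPKR ASV replicates 1, 3, 4 and 5, and 5xFAD iPKR replicates 1 and 2. With sex taken from those reads, the counts of members called in the 3 5xFAD comparisons were 4, 4 and 1, against 4, 6 and 1 with the labelled sex. A set of 16 homeostatic microglial genes took 6.85% ± 1.25 of counts in 5xFAD TRAP, 7.17% ± 1.40 in TRAP, 7.27% ± 0.408 in 5xFAD Eif2A and 8.30% ± 0.733 in Eif2A (SD). The same genes took 1.41% ± 1.09 in 5xFAD iPKR, 0.681% ± 0.642 in iPKR ASV and 0.562% ± 0.238 in iPKR vehicle. The defining genes of the labelled cell type were thus low in the libraries with the iPKR construct. Neuron markers (11 genes) were richest in 5xFAD iPKR replicates 2 and 1 and iPKR ASV replicate 3, at 3.66%, 3.21% and 2.36% of counts. Of 15 genes known to rise in microglia around plaques, 14, 14 and 13 were called higher with 5xFAD on the TRAP, Eif2A and iPKR backgrounds. Gene counts cannot tell the mutant Eif2s1 allele from the normal one. Cx3cr1, the gene that carries the CreERT2 allele, ran from 17.0 to 720 CPM in TRAP and from 566 to 808 CPM in 5xFAD TRAP. Csf1r ran from 2030 to 2392 CPM in TRAP. The cause of the low Cx3cr1 value in TRAP was not tested.

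Cholesterol synthesis joins acetyl-CoA units into mevalonate, turns mevalonate into isoprenoids and squalene, closes squalene into lanosterol and trims lanosterol to cholesterol. When membranes of the endoplasmic reticulum are low in sterol, SCAP escorts the transcription factor SREBP2 (gene Srebf2) to the Golgi, where the site-1 and site-2 proteases (Mbtps1, Mbtps2) release its active part. When sterol is plentiful, the INSIG proteins hold SCAP back, and Insig1 is itself a target of SREBP2 in mammalian cells. The brain makes its own cholesterol because lipoproteins of the blood do not cross its barrier. Astrocytes and oligodendrocytes are known for high synthesis, and microglia for taking up and exporting lipid from debris.

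Promoter windows from 250 bases before to 50 after the start were read from RefSeq (GRCm38.p6), where 22 of the 26 members had 28 windows. SREBP2 binds sterol response elements, and NF-Y binds CCAAT, so both letter strings were searched on both strands. The window of Hmgcs1, the synthase at the entry to the mevalonate route, is shown because it is the 1 member window with TCACNCCAC, the classical element, and was added after the sequences were seen. Those of Msmo1, Sc5d and Dhcr7 are shown because these members had the lowest sums of p ranks over the 3 5xFAD comparisons, and that of Srebf2 because it encodes the regulator. Each is printed 5′ to 3′ on the strand of its gene. Capitals mark the 8 letters TCACNCCA and the 5 letters CCAAT, printed as ATTGG where the match is on the other strand.
Hmgcs1, chr13:119690101-119690400, plus strand: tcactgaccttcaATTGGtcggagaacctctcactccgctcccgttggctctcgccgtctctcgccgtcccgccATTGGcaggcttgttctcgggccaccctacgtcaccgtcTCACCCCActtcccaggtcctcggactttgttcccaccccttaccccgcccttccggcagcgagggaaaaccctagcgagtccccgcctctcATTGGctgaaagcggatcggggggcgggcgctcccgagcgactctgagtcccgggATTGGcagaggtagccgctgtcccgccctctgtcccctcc
Msmo1, chr8:64733529-64733828, minus strand: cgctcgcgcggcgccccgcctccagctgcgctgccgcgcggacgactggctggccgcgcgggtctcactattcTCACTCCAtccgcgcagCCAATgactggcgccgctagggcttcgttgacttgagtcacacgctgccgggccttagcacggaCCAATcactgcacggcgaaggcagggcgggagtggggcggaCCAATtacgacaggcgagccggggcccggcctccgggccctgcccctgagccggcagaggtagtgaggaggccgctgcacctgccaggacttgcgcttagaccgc
Sc5d, chr9:42264251-42264550, minus strand: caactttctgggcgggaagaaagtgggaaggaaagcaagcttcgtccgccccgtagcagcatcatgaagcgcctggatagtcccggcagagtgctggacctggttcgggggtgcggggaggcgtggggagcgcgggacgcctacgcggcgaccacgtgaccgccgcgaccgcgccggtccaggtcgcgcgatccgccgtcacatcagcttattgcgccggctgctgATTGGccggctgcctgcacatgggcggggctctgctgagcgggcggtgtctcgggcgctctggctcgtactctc
Dhcr7, chr7:143822917-143823216, plus strand: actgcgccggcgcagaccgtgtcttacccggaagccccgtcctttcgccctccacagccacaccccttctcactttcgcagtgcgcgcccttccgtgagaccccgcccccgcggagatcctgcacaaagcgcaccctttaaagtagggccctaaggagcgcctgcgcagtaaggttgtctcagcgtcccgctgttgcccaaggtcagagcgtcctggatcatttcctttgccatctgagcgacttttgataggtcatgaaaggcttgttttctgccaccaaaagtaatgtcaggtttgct
Srebf2, chr15:82147019-82147318, plus strand: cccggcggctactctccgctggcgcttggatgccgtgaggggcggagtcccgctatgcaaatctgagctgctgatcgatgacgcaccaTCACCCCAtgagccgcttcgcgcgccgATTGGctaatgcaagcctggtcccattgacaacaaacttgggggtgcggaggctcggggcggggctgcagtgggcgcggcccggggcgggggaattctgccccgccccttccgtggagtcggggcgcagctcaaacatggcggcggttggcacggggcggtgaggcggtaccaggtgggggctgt
TCACNCCAC was in 1 of 28 member windows (3.57%) and in 1.24% of all 32851 windows. The shorter TCACNCCA, chosen after the sequences were seen, was in 3 of 28 (10.7%), namely those of Hmgcs1, Msmo1 and Srebf2, and in 4.36% of all windows. CCAAT was in 18 of 28 (64.3%) and in 37.4% of all windows. The shown windows of Sc5d and Dhcr7 do not hold TCACNCCA, and that of Dhcr7 does not hold CCAAT either, but the last of its 3 windows, not shown, holds 2 matches of CCAAT. A match describes letters and is not a measured binding site.

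Levels per exon length (CPM per kb, where CPM is the count of a gene relative to the TMM-scaled library total, divided by the exon length in kb) spread over more than 1 order of magnitude along the pathway. Exon length is that of all annotated exons of a gene, merged over its transcripts, so the order of genes depends on it. In 5xFAD TRAP and TRAP libraries the highest 4 were Ebp at 29.1 ± 5.16 in 5xFAD TRAP and 24.01 ± 5.21 in TRAP, Hmgcs1 at 28.1 ± 12.7 in 5xFAD TRAP and 18.95 ± 2.99 in TRAP, Pmvk at 27.2 ± 5.54 in 5xFAD TRAP and 18.2 ± 3.31 in TRAP, and Insig2 at 24.3 ± 3.89 in 5xFAD TRAP and 28.4 ± 1.65 in TRAP CPM per kb (SD, n = 4 and 5). In 5xFAD TRAP, Ebp, Hmgcs1 and Pmvk differed from each other by less than their SDs. Of the genes named most often below, Msmo1 had 16.9 ± 2.69 CPM per kb in 5xFAD TRAP and 7.90 ± 2.16 in TRAP, and Dhcr7 had 4.89 ± 2.04 in 5xFAD TRAP and 2.36 ± 0.424 in TRAP. Insig1 had 9.24 ± 4.42 CPM per kb in 5xFAD TRAP and 3.36 ± 0.900 in TRAP, below Insig2 in both groups. The lowest were Lss, lanosterol synthase, at 0.302 ± 0.0603 in 5xFAD TRAP and 0.358 ± 0.0885 in TRAP, and Fdps, which had at most 16 counts in a library. In CPM not divided by length, Lss was at 3.26 ± 0.650 in 5xFAD TRAP and 3.86 ± 0.954 in TRAP, where Idi1 was lower at 3.21 ± 1.12. Fdps shares 1124 exon bases with Gm43738 on the same strand. Whether this overlap lowered its counts was not tested, so they may not show its level.

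**Figure D1:**
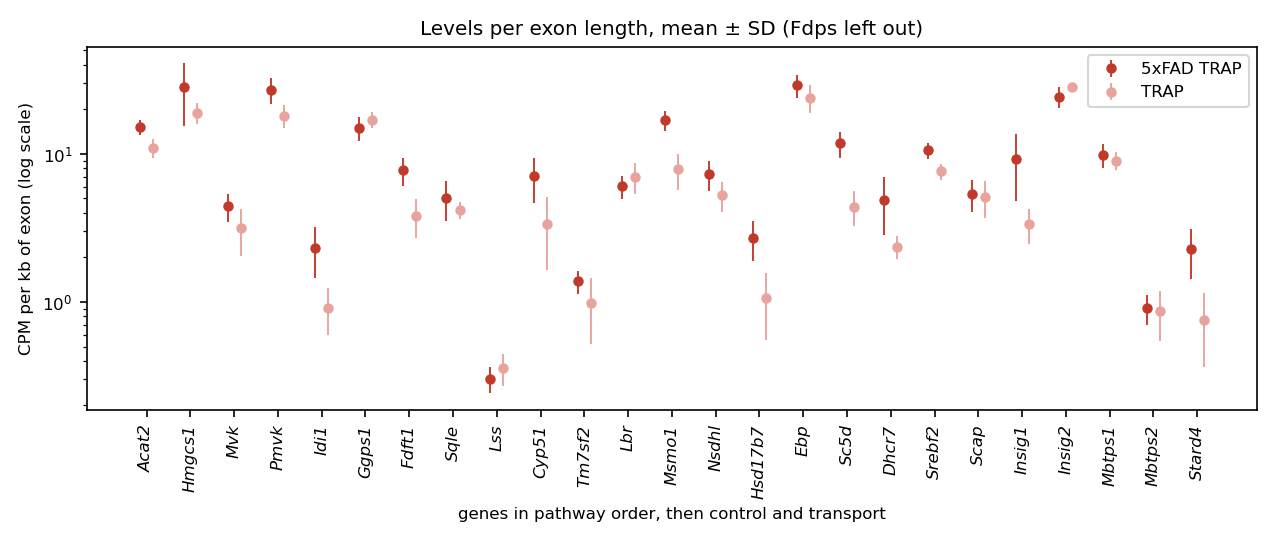
Mean ± SD of CPM per kb of exon (log axis) in 5xFAD TRAP (dark red, n = 4) and TRAP (light red, n = 5) libraries, with genes in pathway order and Fdps left out because its counts are near 0. Insig2 stands at the top of the TRAP values and Lss at the bottom of those drawn. Sc5d, Msmo1 and Insig1 are among several genes, Hsd17b7 and Fdft1 included, whose SD bars of the groups do not meet.

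On the plain tag, 4 of 26 members rose in 5xFAD TRAP and 0 fell. They were Msmo1, Hsd17b7 and Sc5d, which act in the last steps from lanosterol to cholesterol, and the control gene Insig1. Over all 16074 genes tested, 0.709% were called higher, 0.0809% lower and 0.790% in either direction (edgeR quasi-likelihood test, Benjamini-Hochberg adjusted p under 0.05). The members' median log2 fold change was 0.59 and 22 of 26 were positive, whereas the median over all genes was -0.06 and 45.0% were positive. In 9 of 26 members every 5xFAD TRAP library was above every TRAP library, as in 3.40% of all genes. At an unadjusted p under 0.05 there were 12 members, and 10.2% of all genes.

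Msmo1 (chromosome 8, 64718139 to 64733792, mm10), the oxygenase that begins removal of the methyl groups at carbon 4, stood at 108, 124, 94.5 and 86.9 CPM in the 4 5xFAD TRAP libraries, and at 38.2, 36.6, 53.5, 45.4 and 69.0 CPM in the 5 TRAP libraries. The groups did not overlap, and the highest TRAP value was that of replicate 5, the 1 TRAP library of batch 2. The log2 fold change was 1.17 ± 0.24 (SE, adjusted p = 0.00859). The call was lost without TRAP replicate 1 (adjusted p = 0.102) or 5xFAD TRAP replicate 2 (adjusted p = 0.0609). Sc5d (chromosome 9, 42251595 to 42264256), the desaturase of the next-to-last step, stood at 52.1, 72.9, 58.3 and 45.8 CPM in 5xFAD TRAP and at 23.4, 17.9, 23.1, 14.05 and 28.8 CPM in TRAP. Again all 5xFAD TRAP libraries were higher, by 1.59 ± 0.30 on the log2 scale (adjusted p = 0.00567), and the gene was called whichever of the 9 libraries was left out.

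Dhcr7 (chromosome 7, 143823145 to 143848410), the reductase that makes cholesterol in the last step, stood at 27.4, 45.5, 18.9 and 21.95 CPM in 5xFAD TRAP and at 11.97, 13.7, 14.8, 11.03 and 17.3 CPM in TRAP. The groups did not overlap here either, but the gene missed the threshold (1.11 ± 0.30, adjusted p = 0.0783). Hsd17b7, a ketosteroid reductase acting on the same carbon 4 intermediates as Msmo1 and Nsdhl, averaged 13.8 ± 4.19 CPM in 5xFAD TRAP and 5.41 ± 2.57 CPM in TRAP (SD, n = 4 and 5). Its rise of 1.47 ± 0.32 (adjusted p = 0.0159) lost its call without TRAP replicate 2 or any of 5xFAD TRAP replicates 1, 2 and 3 (adjusted p = 0.0581 to 0.0887).

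Insig1 (chromosome 5, 28071363 to 28078662) stood at 46.1, 32.9, 17.6 and 17.8 CPM in 5xFAD TRAP and at 11.4, 7.29, 11.9, 13.7 and 7.69 CPM in TRAP. The first 2 5xFAD TRAP values, both of batch 1, were far above the other 2 of batch 2, and all 4 were above TRAP. The log2 fold change was 1.65 ± 0.31 (adjusted p = 0.00539), and adjusted p = 0.0505 without 5xFAD TRAP replicate 1. Its paralog Insig2 (chromosome 1, 121304353 to 121332589) stood at 71.4, 81.1, 103 and 81.5 CPM in 5xFAD TRAP and at 94.3, 108, 98.0, 94.6 and 97.9 CPM in TRAP (-0.19 ± 0.22, adjusted p = 0.838). These overlapped, with 3 of 4 5xFAD TRAP libraries below every TRAP library.

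Srebf2 (chromosome 15, 82147181 to 82205379) stood at 69.7, 84.4, 65.3 and 83.8 CPM in 5xFAD TRAP and at 52.8, 57.7, 45.0, 55.3 and 63.3 CPM in TRAP. The groups did not overlap, but the difference of 0.44 ± 0.16 missed the threshold (adjusted p = 0.303). Scap (chromosome 9, 110333288 to 110384950) stood at 27.4, 37.3, 45.6 and 49.3 CPM in 5xFAD TRAP and at 26.9, 40.1, 32.2, 36.7 and 54.6 CPM in TRAP, which overlapped through most of their range (-0.10 ± 0.22, adjusted p = 0.933). The 2 protease genes Mbtps1 and Mbtps2 had log2 fold changes of 0.04 ± 0.25 and 0.00 ± 0.50.

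Among the 9 members before lanosterol 0 were called, with a median of 0.64, against 3 of 10 with a median of 0.86 in the steps from Lss to Dhcr7 and 1 of 6 with a median of 0.02 in the control genes. The blocks were not tested against each other. The early members with the largest differences were Idi1, which isomerises isopentenyl diphosphate (1.59 ± 0.49, adjusted p = 0.168), and Fdft1, squalene synthase (1.23 ± 0.45, adjusted p = 0.291), and in both every 5xFAD TRAP library was above every TRAP library. Fdft1 shares 774 exon bases with Ctsb, which lies on the other strand and rose by 1.69 ± 0.24, and the strand setting of the counting is not given, so the reads of the 2 genes may not be separate. Stard4 ran from 9.33 to 19.4 CPM in 5xFAD TRAP and from 1.86 to 7.12 CPM in TRAP. Its difference of 1.74 ± 0.54 was the largest of the 26 members in this comparison and missed the threshold (adjusted p = 0.170). The lowest value among the 26 was that of Lbr, the lamin B receptor with C14 reductase activity (-0.23 ± 0.41).

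Both batches hold 2 5xFAD TRAP libraries. Within batch 1 alone (4 TRAP libraries) the members' median was 0.62 with Cyp51, Msmo1, Sc5d, Dhcr7 and Insig1 called, and within batch 2 alone (1 TRAP library) it was 0.18 with 0 called and 18 of 26 positive. In batch 2 alone Msmo1 stood at 0.37 ± 0.41, Sc5d at 0.83 ± 0.52 and Insig1 at 0.95 ± 0.72, with adjusted p = 1 for each. The lone TRAP library there is assumed to vary like the other groups. Neuron markers took 0.422% and 0.242% of counts in 5xFAD TRAP replicates 1 and 2, 0.0983% and 0.107% in replicates 3 and 4, and 0.108% to 0.129% in TRAP. The mean log2 level of the 19 enzymes, relative to the TRAP mean, was 0.81 and 0.68 in replicates 1 and 2 of batch 1, against at most -0.02 in the 4 TRAP libraries of that batch. It was 0.61 and 0.47 in replicates 3 and 4 of batch 2, against 0.21 in the 1 TRAP library of that batch. The neuron markers had a median log2 fold change of 0.81 with 8 of 11 positive, and their part in the members' values was not tested. Astrocyte markers took 0.0498% ± 0.00575 in 5xFAD TRAP and 0.0605% ± 0.00783 in TRAP, and oligodendrocyte markers 0.0643% ± 0.00723 in 5xFAD TRAP and 0.0696% ± 0.0133 in TRAP, with 0 of 9, 0 of 12 and 0 of 11 astrocyte, oligodendrocyte and neuron markers called. The median over astrocyte markers was 0.19, of the opposite sign to their summed share, and that of oligodendrocyte markers -0.08. Border macrophage markers took 0.0227% ± 0.00110 in 5xFAD TRAP and 0.0411% ± 0.0156 in TRAP, with a median of -0.83, 1 of 9 positive and 0 called. With 5xFAD on the Eif2A and iPKR backgrounds their medians were -0.15 and 0.71, with 3 and 7 of 9 positive and 0 called. Of 11 endothelial markers Flt1 was called higher. None of these markers was at 0 throughout 5xFAD TRAP or throughout TRAP. In bulk RNA of this kind, fewer cells of a type and less RNA per cell cannot be told apart.

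**Figure D2:**
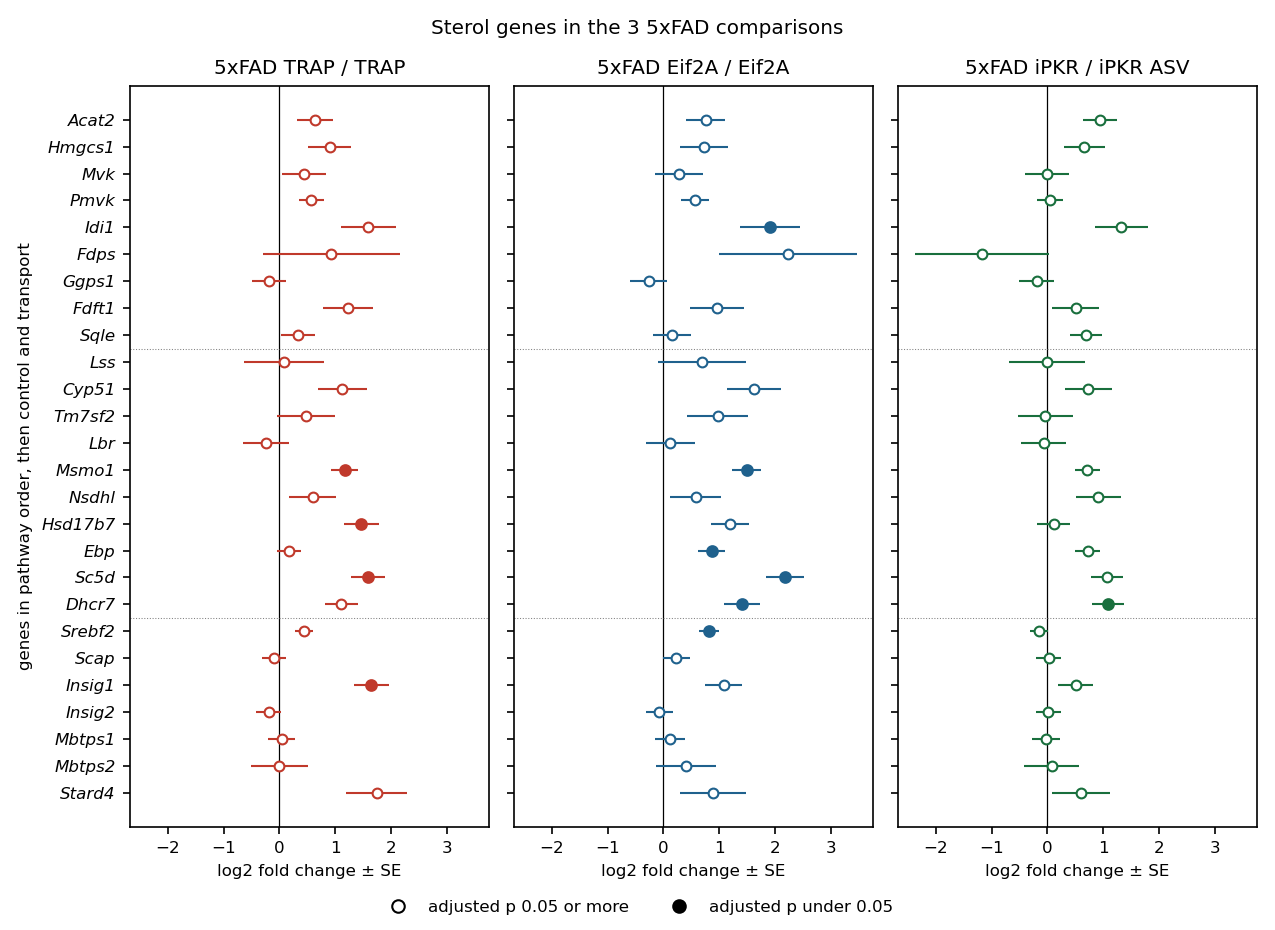
Log2 fold change ± SE of the 26 members, in pathway order from top to bottom, in 5xFAD TRAP over TRAP, 5xFAD Eif2A over Eif2A and 5xFAD iPKR over iPKR ASV, with filled points at an adjusted p under 0.05. Filled points number 4, 6 and 1, and most lie between the 2 dotted lines that bound the steps from Lss to Dhcr7.

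With the Eif2A allele, and with no VEGF or ASV in either group and all libraries of batch 1, 6 of 26 members rose in 5xFAD Eif2A and 0 fell. Idi1 is an isoprenoid enzyme, Msmo1, Ebp, Sc5d and Dhcr7 act after lanosterol, and Srebf2 is the regulator. Over all genes 2.08% were called higher, 1.03% lower and 3.10% in either direction. With RLE instead of TMM scaling, the higher share of all calls was 56.8%, against 66.9% with TMM, and Idi1 and Ebp missed the threshold (adjusted p = 0.0553 and 0.0534). The members' median was 0.78, with 24 of 26 positive, against -0.06 for all genes, 45.0% of which were positive. Every 5xFAD Eif2A library was above every Eif2A library in 13 of 26 members, and in 11.5% of all genes.

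Sc5d stood at 77.9, 76.0 and 79.0 CPM in the 3 5xFAD Eif2A libraries and at 15.1, 18.48, 20.1 and 15.7 CPM in the 4 Eif2A libraries. Both groups were tight and far apart (2.18 ± 0.34, adjusted p = 0.000187). Msmo1 stood at 126, 117 and 138 CPM in 5xFAD Eif2A and at 38.9, 50.8, 48.8 and 43.5 CPM in Eif2A (1.49 ± 0.26, adjusted p = 0.000805). Both genes were called whichever of the 7 libraries was left out. Dhcr7 stood at 30.3, 36.5 and 29.1 CPM in 5xFAD Eif2A and at 8.82, 14.9, 13.6 and 11.2 CPM in Eif2A (1.41 ± 0.32, adjusted p = 0.0122), with no overlap, and missed the threshold only without 5xFAD Eif2A replicate 2 (adjusted p = 0.0820).

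Srebf2 stood at 84.2, 88.2 and 68.4 CPM in 5xFAD Eif2A and at 39.3, 51.0, 49.95 and 41.6 CPM in Eif2A. The groups did not overlap, and the rise of 0.81 ± 0.18 (adjusted p = 0.00888) lost its call without 5xFAD Eif2A replicate 1 or 2 (adjusted p = 0.101 and 0.0692). Insig1 stood at 32.8, 29.3 and 22.3 CPM in 5xFAD Eif2A and at 15.5, 9.38, 15.8 and 12.5 CPM in Eif2A (1.08 ± 0.34, adjusted p = 0.0783), again with no overlap but not past the threshold. Scap stood at 31.9, 33.3 and 31.4 CPM in 5xFAD Eif2A and at 30.3, 19.3, 34.6 and 23.7 CPM in Eif2A (0.23 ± 0.24, adjusted p = 0.749). Its Eif2A values reached above and below those with 5xFAD.

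Insig2 stood at 79.9, 70.3 and 100.1 CPM in 5xFAD Eif2A and at 87.7, 76.7, 91.2 and 98.4 CPM in Eif2A, which overlapped fully (-0.07 ± 0.24, adjusted p = 0.950). Idi1 rose by 1.91 ± 0.53 (adjusted p = 0.0442), at low levels of 13.99 ± 2.93 CPM in 5xFAD Eif2A and 3.86 ± 1.38 CPM in Eif2A, and missed the threshold without any 1 of the 7 libraries. Ebp, the sterol isomerase before Sc5d, rose by 0.87 ± 0.24 (adjusted p = 0.0433), and missed it without any 1 of 6 of the 7. The median was 0.72 with 1 of 9 called before lanosterol, 1.09 with 4 of 10 called after it and 0.32 with 1 of 6 called in the control genes. Neuron markers took 0.0760% ± 0.0152 of counts in 5xFAD Eif2A and 0.0926% ± 0.0116 in Eif2A, with 0 of 11 called. Astrocyte markers took 0.0349% ± 0.00419 in 5xFAD Eif2A and 0.0543% ± 0.0113 in Eif2A, with 0 of 9 called and a median log2 fold change of 0.03. Oligodendrocyte markers took 0.0705% ± 0.00658 in 5xFAD Eif2A and 0.0609% ± 0.0103 in Eif2A, with a median of 0.43, 10 of 12 positive and 0 called. Endothelial markers took 0.00356% ± 0.000107 in 5xFAD Eif2A and 0.00330% ± 0.000422 in Eif2A, with a median of 0.73, 7 of 11 positive and Flt1 and Slc2a1 called higher. Emcn, 1 of these 11 markers, was at 0 in every 5xFAD Eif2A library. The part of these cell types in the members' values was not tested.

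**Figure D3:**
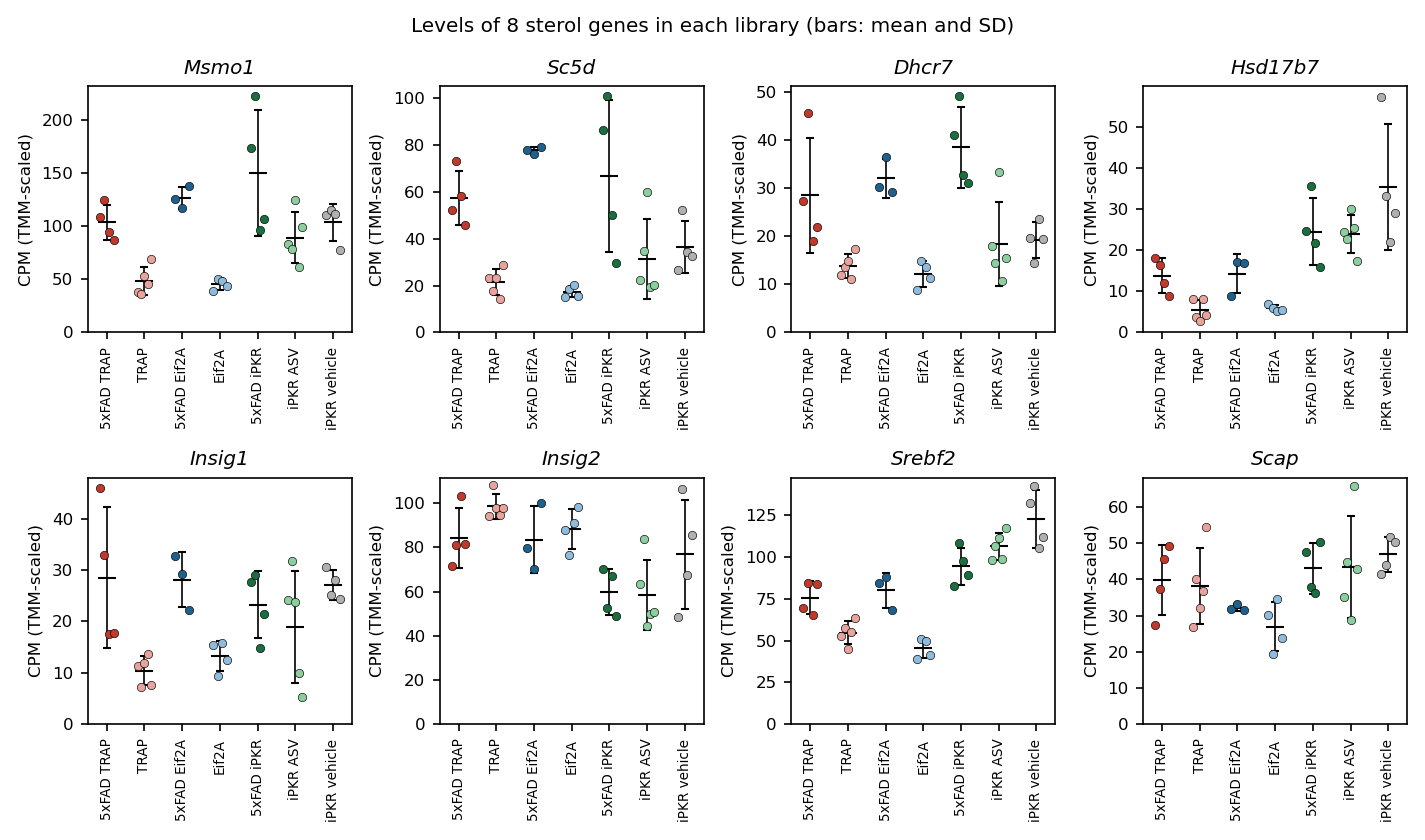
CPM (scaled by TMM) of 8 members in each library of the 7 groups, with a horizontal bar at the mean and error bars of 1 SD. Sc5d and Msmo1 separate 5xFAD TRAP from TRAP and 5xFAD Eif2A from Eif2A without overlap, while Insig2 and Scap overlap in both, and 2 of the 4 5xFAD iPKR libraries stand above the other 2 for Msmo1 and Sc5d.

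On the iPKR background, where both groups had VEGF and ASV, 1 of 26 members rose in 5xFAD iPKR, the last-step gene Dhcr7, and 0 fell. Over all genes 1.54% were called higher, 0.180% lower and 1.72% in either direction. The members' median was 0.31, with 18 of 26 positive, against 0.00 for all genes, 50.4% of which were positive. In 0 of 26 members was every 5xFAD iPKR library above every iPKR ASV library, and this held for 1.54% of all genes. At an unadjusted p under 0.05 there were 8 members, and 13.3% of all genes.

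Dhcr7 stood at 41.0, 49.1, 32.6 and 30.9 CPM in the 4 5xFAD iPKR libraries and at 17.96, 14.3, 33.3, 10.7 and 15.4 CPM in the 5 iPKR ASV libraries. The overlap came from iPKR ASV replicate 3, 1 of the 3 libraries richest in neuron markers. The difference of 1.09 ± 0.29 had an adjusted p = 0.0466 and missed the threshold without any 1 of 8 of the 9 libraries (adjusted p = 0.0721 to 0.127), and stayed called only without iPKR ASV replicate 3.

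Sc5d stood at 86.1, 101, 50.1 and 29.7 CPM in 5xFAD iPKR and at 22.3, 34.7, 59.8, 19.2 and 20.2 CPM in iPKR ASV (1.07 ± 0.29, adjusted p = 0.0601). Msmo1 stood at 173, 223, 96.8 and 107 CPM in 5xFAD iPKR and at 82.8, 78.5, 125, 61.6 and 99.1 CPM in iPKR ASV (0.72 ± 0.23, adjusted p = 0.116). In both genes 5xFAD iPKR replicates 1 and 2 and iPKR ASV replicate 3 were the highest of their groups.

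Srebf2 stood at 82.5, 108, 97.8 and 89.2 CPM in 5xFAD iPKR and at 98.1, 106, 111, 98.9 and 117 CPM in iPKR ASV, with most 5xFAD iPKR values below the iPKR ASV values (-0.15 ± 0.16, adjusted p = 0.761). Insig1 stood at 27.8, 29.002, 14.9 and 21.4 CPM in 5xFAD iPKR and at 24.1, 31.7, 23.9, 9.99 and 5.30 CPM in iPKR ASV (0.50 ± 0.31, adjusted p = 0.508). Each group's libraries spanned most of the other's range.

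Scap stood at 47.5, 37.9, 36.3 and 50.4 CPM in 5xFAD iPKR and at 35.1, 44.9, 28.9, 65.9 and 42.8 CPM in iPKR ASV (0.02 ± 0.22, adjusted p = 0.985). Insig2 stood at 70.0, 52.7, 67.1 and 49.03 CPM in 5xFAD iPKR and at 63.5, 83.6, 44.5, 49.7 and 50.9 CPM in iPKR ASV (0.02 ± 0.22, adjusted p = 0.988). Neither gene separated the groups.

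The mean log2 level of the 19 enzymes relative to the TRAP mean was 1.27 and 1.63 in 5xFAD iPKR replicates 1 and 2 and 0.66 and 0.68 in replicates 3 and 4, against 1.37 in iPKR ASV replicate 3 and 0.27 to 0.43 in the other 4 iPKR ASV libraries. The 3 libraries above 1 are those richest in neuron markers and also in astrocyte markers, which took 0.368% and 0.534% of counts in 5xFAD iPKR replicates 1 and 2 and 0.301% in iPKR ASV replicate 3, against at most 0.199% in any other library. Without these 3 the members' median was 0.15, with 16 of 26 positive and Dhcr7 alone called (1.23 ± 0.35, adjusted p = 0.0467). Without iPKR ASV replicate 3 alone 6 members were called. Within batch 1 alone the median was 0.81 with Acat2, Msmo1, Ebp and Sc5d called, and within batch 2 alone it was 0.24 with 0 called. Neuron markers took 1.97% ± 1.70 of counts in 5xFAD iPKR and 1.27% ± 0.681 in iPKR ASV, with 0 of 11 called. Astrocyte markers took 0.301% ± 0.186 in 5xFAD iPKR and 0.194% ± 0.0641 in iPKR ASV, with 8 of 9 positive and 0 called. Oligodendrocyte markers took 0.297% ± 0.105 in 5xFAD iPKR and 0.236% ± 0.0521 in iPKR ASV, with 10 of 12 positive and 0 called. The homeostatic microglial genes had a median log2 fold change of 1.20. The part of any of these in the members' values was not tested beyond these settings.

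**Figure D4:**
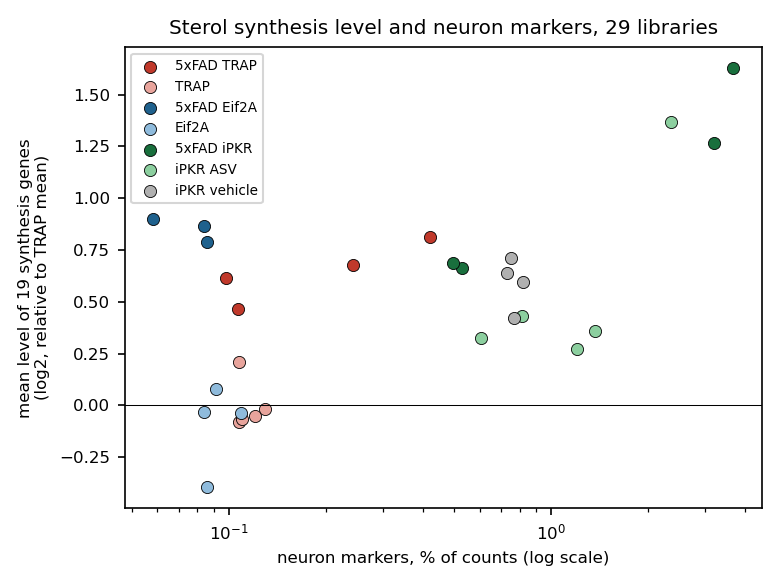
Mean log2 level of the 19 enzymes relative to the TRAP mean (vertical) against the share of counts in 11 neuron markers (horizontal, log axis), 1 point for each of the 29 libraries. The 3 points at the upper right are 5xFAD iPKR replicates 1 and 2 and iPKR ASV replicate 3. The 5xFAD Eif2A points lie at 0.79 to 0.90 on the vertical axis and the Eif2A points at -0.40 to 0.08. Their neuron shares, 0.0585% to 0.0858% in 5xFAD Eif2A and 0.0841% to 0.109% in Eif2A, overlap only narrowly.

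Across the 3 comparisons 16 of 26 members were positive in all 3, as were 19.98% of all genes. Ggps1, whose product feeds protein prenylation, was negative in all 3 (-0.19 ± 0.30, -0.26 ± 0.34 and -0.19 ± 0.31, none called), as were 24.6% of all genes. Msmo1, Sc5d and Dhcr7 were called higher in 2 of the 3, while 0.971% of all genes were called higher in at least 2. In all 3, 0 members and 0.292% of all genes were called higher, and 18 members and 95.7% of all genes were called in none. The 5xFAD effects themselves were compared as a difference of differences. The difference of the Eif2A and TRAP effects was called in 0 members and in 1 of all genes (0.00622%), with 1 member, Ebp, at an unadjusted p under 0.05 (0.69 ± 0.33, adjusted p = 1), as were 4.27% of all genes. DESeq2 called 0 members for it. The difference for Sc5d was 0.59 ± 0.45, for Msmo1 0.32 ± 0.35, for Srebf2 0.37 ± 0.24 and for Insig1 -0.57 ± 0.46 (adjusted p = 1 for each), so neither a larger nor a smaller effect was shown.

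The difference of the iPKR and TRAP effects was called in 0 members and in 6 of all genes (0.0373%), and DESeq2 called 0 members. At an unadjusted p under 0.05 there were 3 members, all with a smaller effect on iPKR, and 6.74% of all genes. They were Hsd17b7 (-1.36 ± 0.44, adjusted p = 0.476), Insig1 (-1.14 ± 0.44, adjusted p = 0.601) and Srebf2 (-0.59 ± 0.23, adjusted p = 0.622). For Dhcr7 the difference was -0.02 ± 0.41. These differences share the TRAP and 5xFAD TRAP libraries.

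Other genes of sterol and lipid handling were counted from lists. Of 14 genes for efflux, ester storage and oxysterols, 4 rose with 5xFAD on TRAP, 5 on Eif2A and 2 on iPKR, with medians of 0.51, 0.37 and 0.82. Apoe, the main lipid carrier of the brain, averaged 5916 ± 1364 CPM in 5xFAD TRAP and 1565 ± 666 CPM in TRAP (2.03 ± 0.33, adjusted p = 0.00083). It rose by 3.39 ± 0.38 (adjusted p = 3.06e-06) on Eif2A and by 2.09 ± 0.33 (adjusted p = 0.000444) on iPKR. Soat1, which esterifies cholesterol for storage, rose by 1.10 ± 0.26, 1.70 ± 0.29 and 1.47 ± 0.27 on the 3 backgrounds (adjusted p = 0.0357, 0.000649 and 0.00188). Ch25h, which makes 25-hydroxycholesterol, averaged 44.6 ± 19.8 CPM in 5xFAD TRAP and 1.32 ± 1.19 CPM in TRAP, and 123 ± 10.5 CPM in 5xFAD Eif2A and 1.39 ± 1.00 CPM in Eif2A. It rose on both (4.91 ± 0.87 and 6.58 ± 1.02, adjusted p = 0.00271 and 0.000198), and on iPKR the value was 3.52 ± 0.96 (adjusted p = 0.0545). The cholesterol ester hydrolase gene Nceh1 rose by 1.91 ± 0.41 on TRAP and 2.46 ± 0.45 on Eif2A (adjusted p = 0.0141 and 0.00153). The other gene called on Eif2A was Lipa, which encodes the lysosomal acid lipase and is named here after its value was seen (1.59 ± 0.29, adjusted p = 0.00161). The sterol exporter Abca1, a target of the LXR receptors and also named after its values were seen, gave -0.29 ± 0.30, 0.08 ± 0.32 and 0.45 ± 0.30, none called.

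Of 12 genes of the fatty acid arm, 0 were called on TRAP, 3 rose on Eif2A and 0 were called on iPKR, with medians of 0.34, 0.28 and 0.61. The 3 were Scd2 (1.22 ± 0.31, adjusted p = 0.0256), Acaca (2.15 ± 0.59, adjusted p = 0.0384) and Srebf1, which encodes SREBP1 (1.13 ± 0.32, adjusted p = 0.0489). Of 14 genes that use isoprenoids, for prenylation, dolichol and ubiquinone, 0 were called in any of the 3 comparisons, with medians of 0.16, 0.14 and 0.13 on TRAP, Eif2A and iPKR. Of 12 genes for sterol-driven degradation of proteins at the endoplasmic reticulum 0 were called, with medians of 0.00, 0.16 and 0.32.

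Without 5xFAD, 0 of 26 members were called between Eif2A and TRAP, with a median of -0.11 and 9 positive. Over all genes edgeR called 0% here, while 912 genes (5.67%) and 1 member had an unadjusted p under 0.05, and DESeq2 called 255 genes and 0 members. Between 5xFAD Eif2A and 5xFAD TRAP 0 members were called, with a median of -0.04, and 0.168% of all genes. Between iPKR ASV and iPKR vehicle 0 members were called, with a median of -0.19, and 0.423% of all genes. Insig1 had the lowest value there (-0.82 ± 0.31, adjusted p = 0.183). DESeq2 called 0 members in both of these comparisons, in which 1 member each had an unadjusted p under 0.05, as did 10.8% and 16.4% of all genes.

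Between iPKR vehicle and TRAP, 11 of 26 members rose and 1 fell, but 28.6% of all genes were called higher and 25.4% lower. The higher members were Acat2, Hmgcs1, Idi1, Fdft1, Sqle, Cyp51, Msmo1, Hsd17b7, Sc5d, Srebf2 and Insig1, with Hsd17b7 the highest (2.81 ± 0.31, adjusted p = 3.2e-08). The isomerase gene Ebp stood at 11.996, 14.1, 18.7 and 13.8 CPM in iPKR vehicle and at 46.4, 49.3, 54.5, 50.7 and 76.3 CPM in TRAP. It fell by 2.00 on the log2 scale (SE 0.24, adjusted p = 7.93e-08), against the direction of the other called members. The members' median was 0.91 and that of all genes 0.17. Sqle, squalene monooxygenase, which was not called in any 5xFAD comparison, averaged 70.8 ± 13.7 CPM in iPKR vehicle and 23.2 ± 2.88 CPM in TRAP (1.70 ± 0.30, adjusted p = 2.76e-05). Beside this, astrocyte markers took 0.162% ± 0.0285 of counts in iPKR vehicle and 0.0605% ± 0.00783 in TRAP, oligodendrocyte markers 0.295% ± 0.125 in iPKR vehicle and 0.0696% ± 0.0133 in TRAP, and neuron markers 0.766% ± 0.0375 in iPKR vehicle and 0.115% ± 0.00957 in TRAP. All 16 homeostatic genes were called lower. Whether the members moved with the mix of cells was not tested, and here the construct, VEGF and the mix of cells cannot be told apart.

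Between 5xFAD iPKR and 5xFAD TRAP, 5 members were higher and 2 lower, and 25.0% of all genes were called higher and 23.0% lower. Acat2, Hmgcs1, Fdft1, Sqle and Hsd17b7 rose, while Ebp (-1.84 ± 0.25) and the site-1 protease gene Mbtps1 (-0.65 ± 0.27, adjusted p = 0.0462) fell. Mbtps1 was not called with RLE scaling, without the low-count filter, with DESeq2 or with the replicate number as a block. With the block 6 members were called, and Mbtps1 stood at -0.62 ± 0.29 (adjusted p = 0.0840). RLE scaling and DESeq2 each called 7 members higher, with Cyp51 and Srebf2 added, and Ebp alone lower. Beside this, 11 of 11 neuron, 8 of 9 astrocyte and 12 of 12 oligodendrocyte markers were called higher and 16 of 16 homeostatic genes lower, and their part in the members' values was not tested. The count of called members was 3 to 9 when single libraries were left out, and 3 without 5xFAD iPKR replicate 2. The differences of Sc5d (0.04 ± 0.32), Msmo1 (0.46 ± 0.25) and Insig1 (-0.25 ± 0.33) were not called.

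**Figure D5:**
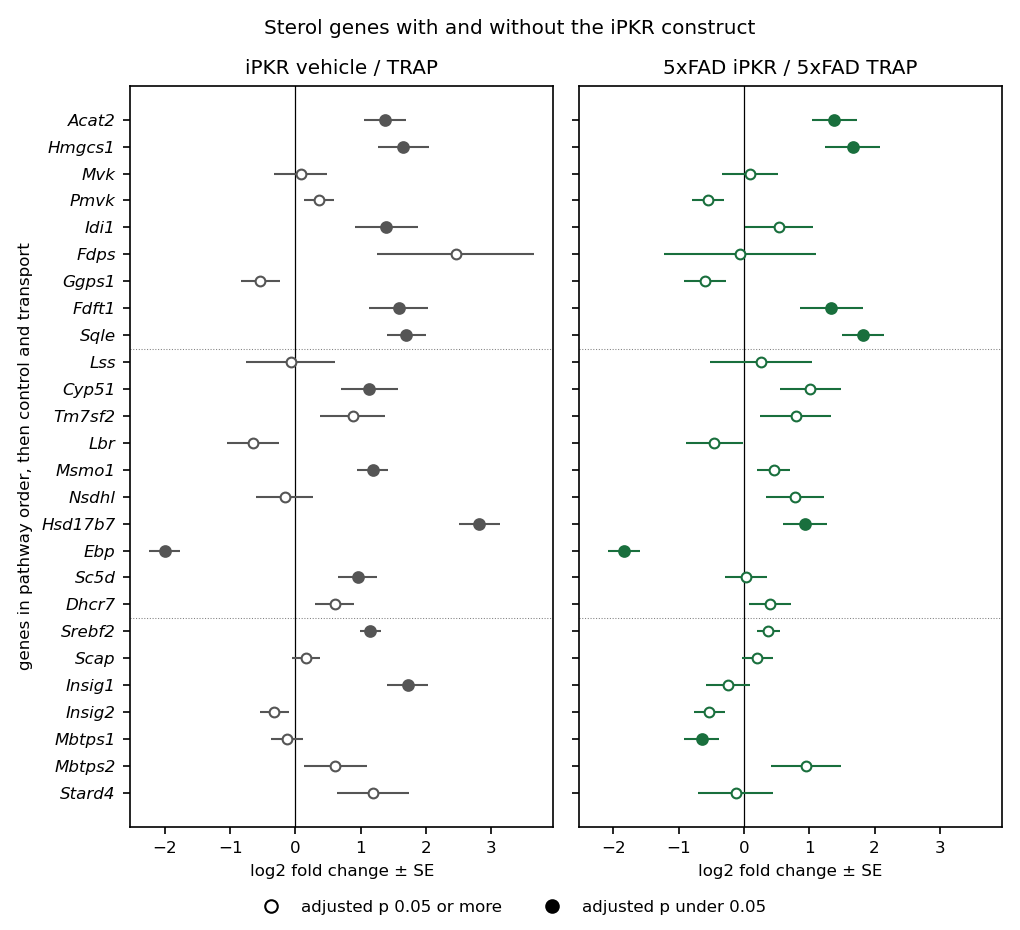
Log2 fold change ± SE of the 26 members, in pathway order from top to bottom, in iPKR vehicle over TRAP (grey) and 5xFAD iPKR over 5xFAD TRAP (green), with filled points at an adjusted p under 0.05. In iPKR vehicle over TRAP 11 members are filled on the right and Ebp is filled on the left.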

How the data were processed

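TRAP RNA of 29 mouse cortices in 7 groups was sequenced after GFP pull-down with a SMART-Seq mRNA library kit, per the labels' protocols. The values are raw read counts per gene as deposited by the authors. Reads were trimmed with Trim Galore, aligned to mm10 with HISAT2 2.2.1 and counted with featureCounts 2.0.3, per the submitters' processing notes. The annotation used, the strand setting and the treatment of multi-mapped reads are not given in the sources used here. The deposited RPKM table was not used.

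From the counts, edgeR 4.0.16 (limma 3.58.1, R 4.3.3) fitted a quasi-likelihood model with group, labelled batch and labelled sex over all 29 libraries, leaving 20 residual degrees of freedom. Scaling was by TMM, and filterByExpr kept genes by a minimum count of 10 and a minimum total of 15. P-values were adjusted by Benjamini-Hochberg over all 16074 genes, with a threshold of 0.05. The procedure was tested on simulated data. Figures were drawn with matplotlib 3.10.9. Gene positions and exon lengths are from GENCODE M21.

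The members and the other lists were chosen with earlier results of these data known. Values in every library are given for members called in at least 2 of the 3 5xFAD comparisons or in a difference of 5xFAD effects, and for Srebf2, Scap, Insig1 and Insig2. Other members are given by mean and SD, by range or by fold change, with Mvk and Nsdhl only where a library stood apart. Cyp51, otherwise only named and drawn, gave 1.13 ± 0.44, 1.63 ± 0.48 and 0.74 ± 0.42 with 5xFAD on TRAP, Eif2A and iPKR. Tm7sf2 gave 0.48 ± 0.52, 0.98 ± 0.55 and -0.04 ± 0.49, and neither gene was called. In the other lists up to 4 called genes with the smallest p per 5xFAD comparison were named, with exceptions stated. Ebp in iPKR vehicle was added after its values were seen. Alternatives were RLE scaling, no low-count filter, DESeq2 1.42.0, the replicate number as a block, no sex or batch term, single batches, fewer groups and leaving out each library. Each library is 1 mouse, and no libraries were copies of each other. Same-numbered libraries did not deviate together in the 5xFAD comparisons (correlations of -0.74 to 0.23 over 9838 genes), so the numbers were not treated as pairs. In 5xFAD iPKR against 5xFAD TRAP every pair's correlation was over 0.1 (0.25 to 0.42), where replicates 1 and 2 of both groups are of batch 1 and replicates 3 and 4 of batch 2. Protein sequences of Insig1 and Insig2 were planned and are not shown.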

Additional observations from a re-analysis of the deposited data

Results flagged for a closer look

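In 149 combinations of a member and a group, 12 libraries stood apart from the rest of their group by Dixon's criterion, and chance alone would give about 5% of groups. Of these, 5 were iPKR ASV replicate 3, the library with 2.36% of counts in neuron markers. It had 136 CPM for Acat2 (others 34.9 to 51.8), 157 CPM for Fdft1 (28.7 to 60.0) and 977 CPM for Hmgcs1 (113 to 269). In the same library Idi1 stood at 16.2 CPM (1.35 to 5.26) and Lss at 16.5 CPM (0.258 to 4.60). Ebp stood apart in iPKR ASV replicate 5 at 23.6 CPM (6.57 to 9.63) and in TRAP replicate 5, the 1 TRAP library of batch 2, at 76.3 CPM (46.4 to 54.5). TRAP replicate 2 was high for Insig2 at 108 CPM (94.3 to 98.0) and for Nsdhl at 20.96 CPM (12.8 to 13.9). iPKR vehicle replicate 2 was high for Lbr at 48.8 CPM (11.4 to 14.3), and iPKR vehicle replicate 4 was low for Msmo1 at 78.0 CPM (110 to 116). 5xFAD TRAP replicate 3 was low for Mvk at 8.03 CPM (12.8 to 13.3).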

How the results depend on the processing

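None of the 11 calls of members in the 5xFAD comparisons reversed direction under the settings run. For 5xFAD TRAP against TRAP the 4 called members became 2 without a batch term, 8 when the iPKR groups were left out of the fit, 0 in batch 2 alone (added after the data were seen) and 2 to 5 when single libraries were left out, with 2 without 5xFAD TRAP replicate 1 or 2. For 5xFAD Eif2A against Eif2A the 6 became 10 with only the compared groups fitted and 13 without the iPKR groups. They became 8 with DESeq2 or in batch 1 alone, 9 without the 3 libraries richest in neuron markers and 5 without a sex term. RLE scaling, no low-count filter, no batch term and sex from Y-linked reads each left 4, namely Msmo1, Sc5d, Dhcr7 and Srebf2, without Idi1 and Ebp. Leaving out single libraries left 2 to 5, with 3 and 2 without 5xFAD Eif2A replicates 1 and 2. For 5xFAD iPKR against iPKR ASV the 1 became 0 without the low-count filter, without a batch term, with only the compared groups or in batch 2 alone, 2 with DESeq2 or without a sex term, 4 in batch 1 alone, and 0 to 6 when single libraries were left out. For 5xFAD iPKR against 5xFAD TRAP the 7 became 3 to 9, and for iPKR vehicle against TRAP the 12 became 11 to 15, when single libraries were left out. The cause of these shifts was not tested. Over all genes the calls were 127 in the first comparison (4 to 958 over the settings other than leaving out single libraries), 499 in the second (329 to 2090) and 277 in the third (10 to 845).

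With the replicate number as a block, which the check of pairing did not justify, 3 members were called for 5xFAD TRAP (Idi1, Msmo1 and Sc5d), 6 for 5xFAD Eif2A and 2 for 5xFAD iPKR (Msmo1 and Ebp, with Dhcr7 at adjusted p = 0.0668 by edgeR). Low counts limit Fdps, Lss, Idi1, Tm7sf2, Stard4 and Mbtps2, whose SEs reach 0.49 or more in 5xFAD TRAP against TRAP.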
